A study of Macaca mulatta with 13 samples.

Results

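DEAD and DEAH box proteins are a family of enzymes that spend ATP to unwind short RNA duplexes or to strip proteins from RNA. Most DEAD box members separate a duplex locally, while DEAH box members pull on a single strand from one end. Different members act at successive steps in the life of a transcript, in splicing, export, ribosome assembly, translation and decay, and blood mononuclear cells use them as all nucleated cells do. The genes described here are those that the array's annotation pairs with 1 symbol beginning DDX or DHX followed by a digit, without DDX3Y and without the antiviral helicases DDX58, DDX60, DDX60L and DHX58. This left 36 genes, carried by 74 of 52707 non-control probe sets, among 14132 named genes on the array. Each gene was represented by its probe set of highest mean over all arrays. Well-known members that the annotation used here does not pair with 1 symbol, such as DDX5, DDX6, DDX17, DDX21 and DDX39B, were not analysed here.

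The samples were peripheral blood mononuclear cells (lymphocytes and monocytes) from rhesus macaques 4 months old, all with age and tissue in common. There were 4 samples of surrogate-peer reared animals, 4 of peer reared animals and 5 of maternally reared animals, and the question was whether expression differs with early rearing. No other attribute of the animals enters the comparisons, each sample was hybridised to 1 Affymetrix rhesus genome array, and array numbers below only name the arrays. The labels do not state which samples come from separate animals, so p-values measure the spread between these samples. "Non-maternal" means the 8 surrogate-peer and peer arrays together. Markers of the labelled tissue were present: all 7 measured T cell, 8 B cell, 10 NK and cytotoxic and 9 monocyte markers read above the level used for testing, as did 6 of 6 platelet, 4 of 6 neutrophil and 3 of 4 erythroid markers.

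Of the 36 helicase genes, 34 had a brightest probe set above the median mean level of all probe sets and were tested. DDX53, a helicase known from germ cells and tumours, and DHX33, a ribosome biogenesis helicase, lay below that level. DDX53 read between 3.46 and 3.73 log2 units on the non-maternal arrays and between 3.54 and 3.79 on the maternal arrays, and DHX33 between 5.77 and 5.98 on the non-maternal arrays and between 5.44 and 6.02 on the maternal arrays. The groups overlapped for both. All values below are log2 intensities of single probe sets, and differences are between groups for the same probe set, since levels of different probe sets cannot be set against each other.

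Against maternal rearing, more helicase transcripts were higher than lower on the non-maternal arrays, by differences that were mostly small. DHX29, DDX42, DHX35, DHX9 and DDX20 rose, by 0.29 to 0.48 log2 units, and DHX8 fell by 0.49 (limma, Benjamini-Hochberg adjusted over 26352 probe sets, threshold 0.05). That is 5 of 34 tested helicases higher (14.7%), where 6.30% of all tested named genes were called higher, and 1 lower (2.94%), where 1.69% were. At an unadjusted p under 0.05 there were 14 higher (41.2%) and 1 lower, beside 18.7% and 11.0% of named genes. In all, 25 of 34 differences were above 0 (73.5%), compared with 50.7% over named genes, and the median difference was 0.15 compared with 0.01. That median was 0.07 without maternal array 5, 0.06 without maternal arrays 2 and 5, and between 0.07 and 0.20 when any 1 array was left out. With arrays centred or quantile-scaled it was 0.09 and 0.08. Centring shifts the difference of every gene alike, as array medians averaged 7.74 on non-maternal and 7.68 on maternal arrays. The named-gene median was not set beside these or the leave-out medians, so they do not show a change relative to that background. By probe set rather than gene, 5 of the family's 60 tested probe sets were higher and 2 lower, against backgrounds of 6.64% and 1.35%. The share of higher probe sets was thus nearer its background than the share of higher genes was. The 21 tested DDX genes had a median of 0.25 and 15 differences above 0, and the 13 tested DHX genes a median of 0.12 and 10 above 0.

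The mean of the 34 centred values summarises the family on each array. It was 0.02, -0.06, 0.14 and 0.01 on the surrogate-peer arrays, 0.13, 0.08, 0.01 and 0.12 on the peer arrays, and 0.07, -0.07, -0.01, -0.15 and -0.27 on the maternal arrays. Maternal arrays 4 and 5 were the lowest of the 13, maternal array 1 lay among the non-maternal arrays, and the groups overlapped. These arrays recur in the single genes below.

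**Figure D1:**
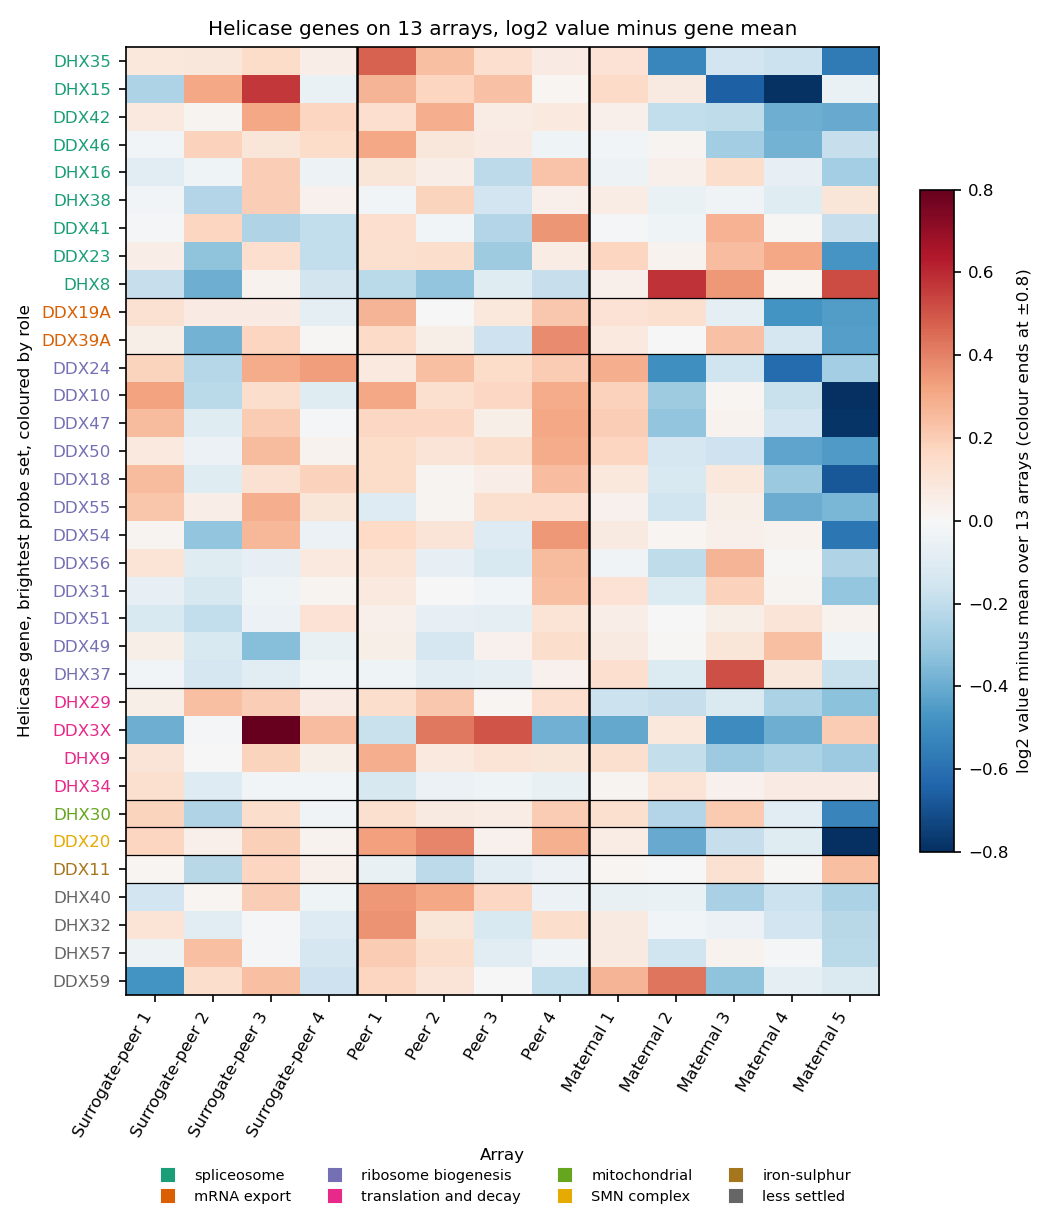
Log2 value minus the gene's mean over 13 arrays (colour) for the 34 tested helicase genes (rows, ordered by role) on each array (columns: surrogate-peer, peer, maternal). DHX8 is red on maternal arrays 2, 3 and 5, and maternal array 5 is blue for most genes.

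The spliceosome uses a relay of helicases, each driving 1 rearrangement of the machine. Of 9 measured, DHX35 and DDX42 rose and DHX8 fell, where 6.30% of named genes were called higher and 1.69% lower. In this group 6 differences were above 0, beside 50.7% of named genes, and the median was 0.07 with a range of -0.49 to 0.42. DHX8, the homologue of yeast PRP22 that releases finished mRNA from the spliceosome, was the only lower call among the brightest probe sets. It read 8.56, 8.35, 8.78 and 8.60 on the surrogate-peer arrays, 8.53, 8.43, 8.65 and 8.56 on the peer arrays, and 8.79, 9.32, 9.09, 8.76 and 9.27 on the maternal arrays. The maternal arrays were higher, and the groups touched only where surrogate-peer array 3 reached just above maternal array 4. The difference was -0.49 ± 0.11 (SE), or 0.71-fold, with a limma adjusted p of 0.0284. DHX8's 2 other tested probe sets gave -0.20 and -0.09, with adjusted p of 0.263 and 0.405, and a further one lay below the level used for testing.

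DDX42, which binds the SF3B complex of the U2 particle, read 8.92, 8.87, 9.16 and 9.02 on surrogate-peer arrays, 8.98, 9.14, 8.91 and 8.93 on peer arrays, and 8.89, 8.65, 8.65, 8.46 and 8.45 on maternal arrays. Only maternal array 1 reached the range of the non-maternal arrays. The difference was 0.37 ± 0.09 (1.29-fold, limma adjusted p = 0.0304). DHX35, found in purified spliceosomes, averaged 7.40 ± 0.04 on surrogate-peer arrays, 7.54 ± 0.18 on peer arrays and 7.05 ± 0.28 on maternal arrays (SD, n = 4, 4 and 5). Its non-maternal arrays lay between 7.36 and 7.78, and its maternal arrays read 7.42, 6.79, 7.16, 7.14 and 6.74, so again maternal array 1 overlapped. The difference was 0.42 ± 0.11 (1.34-fold, limma adjusted p = 0.0434).

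The other spliceosomal helicases did not pass. DHX15, the PRP43 homologue that takes spent spliceosomes apart, differed by 0.41 ± 0.18 (adjusted p = 0.154), and DDX46, the PRP5 homologue that acts when U2 binds the branch site, by 0.27 ± 0.08 (adjusted p = 0.0637). DHX15 lay between 8.58 and 9.39 on non-maternal arrays and between 8.03 and 8.98 on maternal arrays, while DDX46 lay between 10.21 and 10.55 on non-maternal arrays and between 9.87 and 10.26 on maternal arrays. DHX16 and DHX38, which drive activation of the spliceosome and its second catalytic step, differed by 0.07 and 0.01. DDX41, also known as a DNA sensor, and DDX23, which frees the 5′ splice site from U1, differed by -0.02 and -0.09. Other tested probe sets gave 0.51 for DHX15 (limma adjusted p = 0.0860), 0.29 for DDX46 (0.0960), -0.07 for DHX38 and 0.11 for DDX23.

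**Figure D2:**
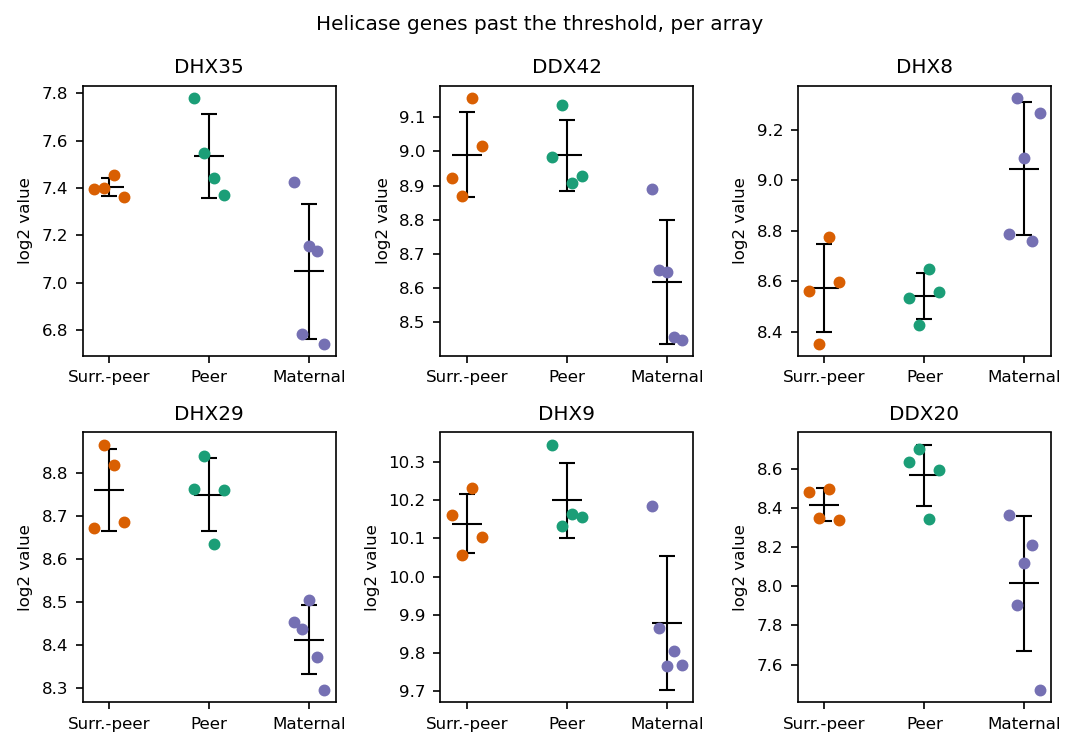
Log2 value of the 6 helicase genes past the threshold on each array (points) by rearing group, with group mean and SD (bars). Vertical axes differ between panels and do not start at 0. DHX29 is the gene whose groups do not overlap, and maternal array 1 is the highest maternal point for DHX35, DDX42, DHX9 and DDX20.

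DHX29 and DHX9 rose among the 4 helicases of translation, decay and RNA structure, where 6.30% of named genes were called higher. DHX29, a ribosome-bound helicase that helps the small subunit scan structured leaders, read 8.67, 8.87, 8.82 and 8.69 on surrogate-peer arrays, 8.76, 8.84, 8.64 and 8.76 on peer arrays, and 8.45, 8.44, 8.51, 8.37 and 8.30 on maternal arrays. Every non-maternal array was above every maternal array. Of all tested named genes, 1.58% were separated in that direction and 1.06% in the other. The difference was 0.34 ± 0.06 (1.27-fold, limma adjusted p = 0.0211), the smallest adjusted p in the family. DHX29, like DDX42 and DHX35, had only 1 tested probe set, so no other probe set could be compared.

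DHX9, also called RNA helicase A, averaged 10.14 ± 0.08 on surrogate-peer arrays, 10.20 ± 0.10 on peer arrays and 9.88 ± 0.18 on maternal arrays (SD, n = 4, 4 and 5). Maternal array 1 read 10.18, within the non-maternal range, while the other maternal arrays lay between 9.77 and 9.87. The difference was 0.29 ± 0.08 (1.22-fold, limma adjusted p = 0.0460), and 2 other tested DHX9 probe sets gave 0.45 and 0.09. DDX3X, a translation initiation helicase, differed by 0.33 ± 0.22 (adjusted p = 0.319), with its other probe sets at 0.38 and -0.21. It was the most scattered of the 4, from 10.72 to 11.91 on non-maternal arrays and from 10.60 to 11.31 on maternal arrays.

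DHX34, a cofactor of nonsense-mediated decay, was called by a dimmer probe set only. Its brightest probe set differed by -0.10 ± 0.06 (adjusted p = 0.265). A dimmer one read 6.48, 6.50, 6.30 and 6.43 on surrogate-peer arrays, 6.32, 6.29, 6.34 and 6.44 on peer arrays, and 6.50, 6.63, 6.65, 6.60 and 6.81 on maternal arrays. The maternal values were all higher, by a margin under 0.01 at the nearest pair, and the difference was -0.25 ± 0.07 (limma adjusted p = 0.0406). Of all tested probe sets 1.35% were called lower. The share of probe sets with separated groups was not counted.

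DDX20, or gemin3, belongs to the SMN complex that loads Sm proteins onto spliceosomal RNAs, and it had the largest rise in the family. It read 8.48, 8.35, 8.50 and 8.34 on surrogate-peer arrays, 8.64, 8.70, 8.35 and 8.59 on peer arrays, and 8.37, 7.91, 8.12, 8.21 and 7.47 on maternal arrays. Maternal array 5 was lowest by a wide margin and maternal array 1 overlapped the other groups. The difference was 0.48 ± 0.13 (1.39-fold, limma adjusted p = 0.0441). Its other probe sets gave 0.60 and 0.40, each with an adjusted p of 0.083.

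No helicase of ribosome biogenesis passed the threshold, where 6.30% of named genes were called higher and 1.69% lower. Of 13 measured and 12 tested, 9 differed above 0, beside 50.7% of named genes, and the median was 0.21. At an unadjusted p under 0.05 there were 6, all of them positive, beside 18.7% of named genes higher and 11.0% lower. The 6 were DDX24 (0.41, adjusted p = 0.0899), DDX10 (0.34, 0.145), DDX47 (0.33, 0.139), DDX50 (0.32, 0.0666), DDX18 (0.30, 0.128) and DDX55 (0.27, 0.0805), which act in the maturation of the ribosomal subunits. DDX50, with the smallest p of the group, read 9.27, 9.15, 9.44 and 9.22 on surrogate-peer arrays, 9.34, 9.29, 9.33 and 9.49 on peer arrays, and 9.36, 9.06, 9.03, 8.77 and 8.74 on maternal arrays. Only maternal array 1 entered the non-maternal range. DDX47 lay between 10.20 and 10.61 on the non-maternal arrays and between 9.52 and 10.50 on the maternal arrays. DDX24 and DDX10 each had another probe set just below 0, at -0.02 and -0.08. The gene ID of the brightest DDX24 probe set was absent from the RefSeq gene list, while that of the probe set at -0.02 was listed as DDX24. DDX54, DDX56 and DDX31 differed by 0.14, 0.06 and 0.03, and DDX51, DDX49 and DHX37, the last of which releases the U3 particle, by -0.08, -0.13 and -0.15.

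The remaining members did not pass. The export helicases DDX19A, which works at the nuclear pore, and DDX39A differed by 0.25 ± 0.11 (adjusted p = 0.173) and 0.09. Their other tested probe sets gave 0.05 for DDX19A (limma adjusted p = 0.707) and 0.26 for DDX39A (0.0920). DHX30, needed to build the mitochondrial ribosome, differed by 0.17, and DDX11, a DNA helicase of sister chromatid cohesion, by -0.13. Among 4 helicases of less settled role, DHX40 differed by 0.26 ± 0.08 (adjusted p = 0.0728), DHX32 by 0.12, DHX57 by 0.09 and DDX59 by -0.06.

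**Figure D3:**
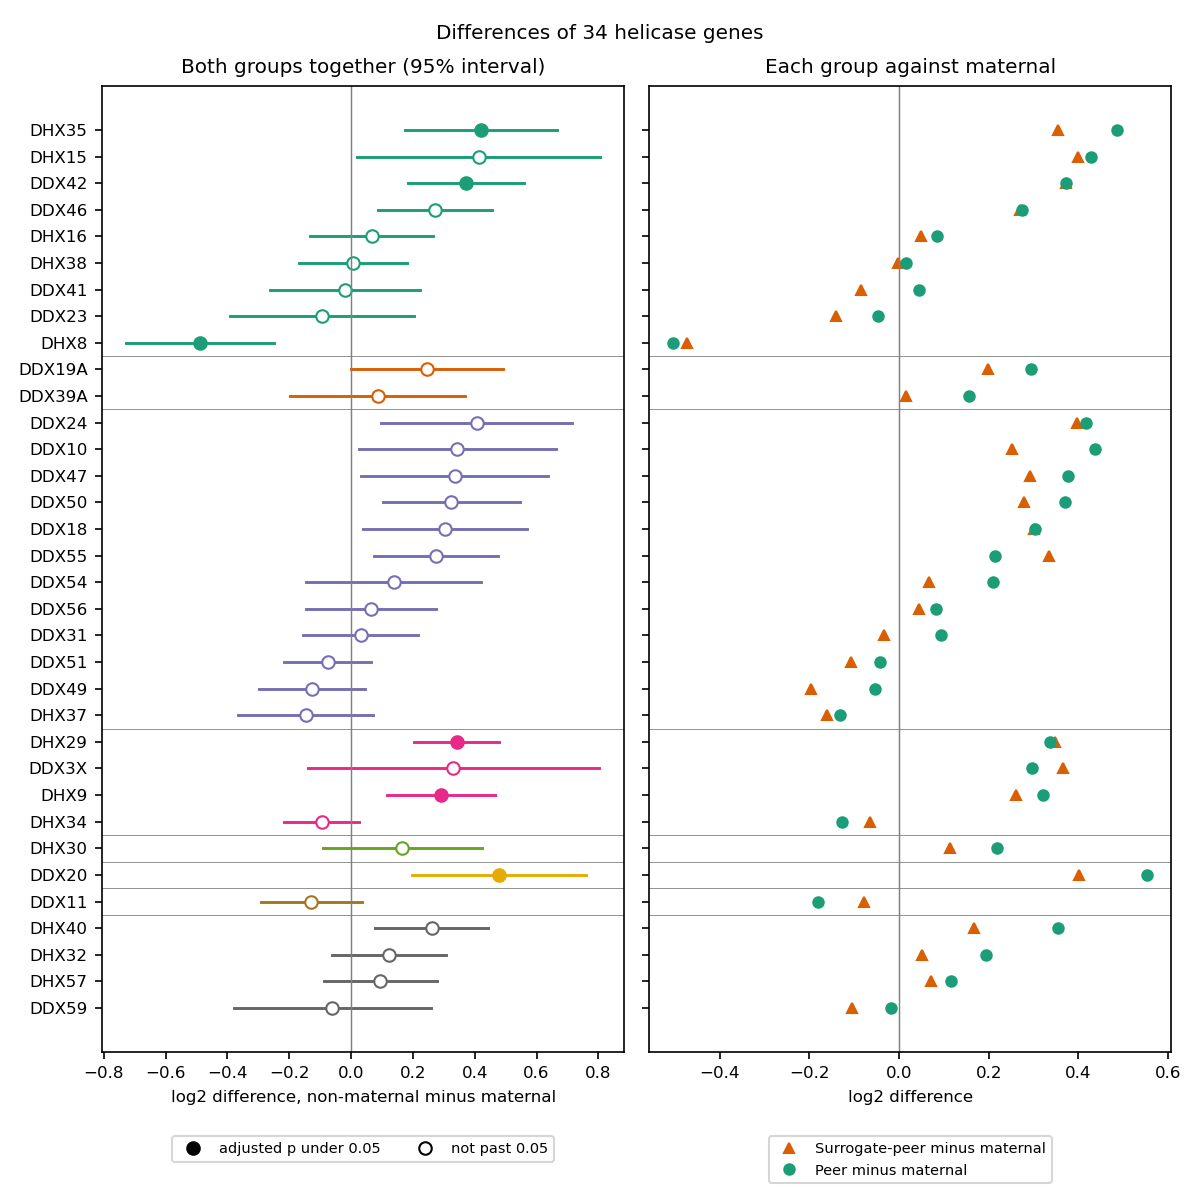
Left, log2 difference with its 95% interval for the 34 tested helicases, non-maternal minus maternal, grouped by role. Right, surrogate-peer minus maternal and peer minus maternal for the same genes. In the left panel filled points passed an adjusted p of 0.05, and DHX8 is the filled point below 0.

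The 2 contrasts with maternal rearing share the 5 maternal arrays. For surrogate-peer minus maternal rearing, limma called 0 of 34 helicases (0% of named genes too); at an unadjusted p under 0.05, 9 were higher and 1 lower, beside 13% and 7.04% of named genes. The median was 0.09 (0.03 without maternal array 5 and 0.16 without surrogate-peer array 2), and the smallest adjusted p were those of DHX29 (0.35 ± 0.07, 0.078), DDX42 (0.37 ± 0.10, 0.103), DHX8 (-0.47 ± 0.13, 0.103), DDX55 (0.33, 0.135) and DHX9 (0.26 ± 0.09, 0.161). For peer minus maternal rearing limma also called 0 of 34, where 0.166% of named genes were higher and 0.0311% lower; unadjusted, 12 were higher and 1 lower, beside 16.8% and 9.05%. The median was 0.21 (0.13 without maternal array 5), with DHX29 at 0.34 ± 0.07 (adjusted p = 0.0564), DHX8 at -0.50 ± 0.13 (0.0643), DHX35 at 0.49 ± 0.13 (0.0702), DDX42 at 0.37 ± 0.10 (0.0704) and DDX20 at 0.55 ± 0.15 (0.0714).

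Surrogate-peer and peer rearing were not distinguished for any helicase. Limma called 0 of 34 (0% of named genes), and 0 also at an unadjusted p under 0.05, beside 0.611% of named genes higher and 1.26% lower. Of 34 differences 7 were above 0 (20.6%, beside 47% of named genes), with a median of -0.06 that turned to 0.068 with the number in the sample title as covariate. Title numbers ran from 9 to 32 on surrogate-peer arrays and from 35 to 47 on peer arrays. They did not overlap, so that fit separates title number from rearing only by carrying a straight line from one group to the other. The smallest p was that of DHX40, which averaged 8.72 ± 0.15 on surrogate-peer arrays and 8.91 ± 0.18 on peer arrays (SD, n = 4 each), a difference of -0.19 with a 95% interval of -0.42 to 0.04. DDX49, DHX32 and DDX31 differed by -0.14, -0.14 and -0.13, and DDX11 by 0.10 with an interval of -0.10 to 0.31. These intervals leave room for differences as large as several of those called against maternal rearing.

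**Figure D4:**
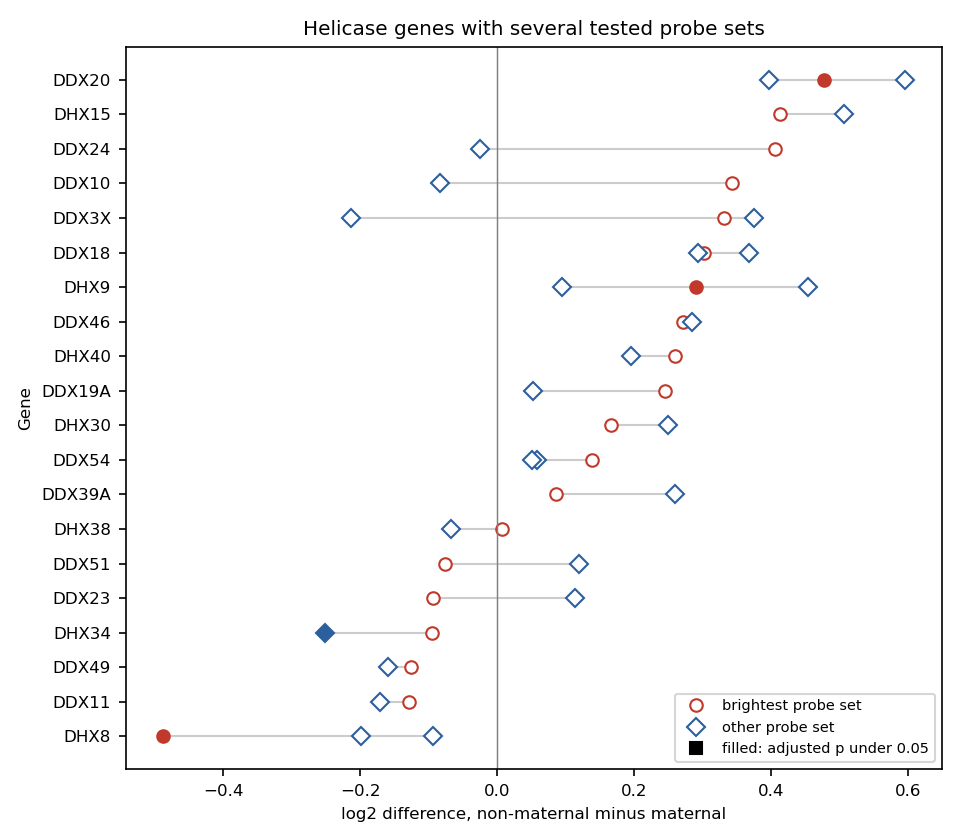
Log2 difference, non-maternal minus maternal, for each tested probe set of the 20 helicases with more than 1; circles are the brightest probe set, diamonds the others, and filled symbols passed an adjusted p of 0.05. In 14 genes all lie on 1 side of 0, and in 6 (DDX10, DDX23, DDX24, DDX3X, DDX51 and DHX38) they lie on both.

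Genes that work with the helicases were called 0 or 1 to a list, where 6.30% of named genes were called higher, so their calls are no result about the lists. Among 18 tested G-patch proteins, cofactors that activate DEAH helicases, GPATCH4 rose (0.35 ± 0.10, limma adjusted p = 0.0480), and the list median was 0.09. Of 10 exon junction and nonsense-mediated decay genes none passed, with 3 higher at an unadjusted p under 0.05 (18.7% of named genes) and a median of 0.04. THOC7, a subunit of the THO export complex, rose by 0.31 ± 0.09 (limma adjusted p = 0.0497), 1 of 11 export genes tested. LSM14A, a P body protein, rose by 0.33 ± 0.08 (limma adjusted p = 0.0373), 1 of 12. Of 23 ribosome biogenesis partners 20 were above 0, beside 50.7% of named genes, with a median of 0.30, and NOP56 of the box C/D snoRNP passed at 0.53 ± 0.13 (limma adjusted p = 0.0336). Of 3 tested relatives with neither symbol, YTHDC2, a helicase that binds methylated RNA, rose by 0.39 ± 0.11 (limma adjusted p = 0.0455).

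Other features of the arrays moved with rearing. Maternal array 5 held the lowest value of 18 of 34 helicases (52.9%), and of 28.2% of named genes. The ratio of 3′ to 5′ control probe sets, a sign of RNA length, was 1.31 to 1.74 log2 units on non-maternal arrays and 1.56 to 2.22 on maternal arrays. The T cell marker score, the mean of the list's centred log2 values, ran from -0.05 to 0.37 on non-maternal arrays and from -0.59 to 0.02 on maternal arrays. Of 7 tested T cell markers 1 was higher (6.30% of named genes) and all 7 were above 0 (50.7%). The NK and cytotoxic score ran from -0.99 to 0.48 against 0.09 to 0.99 on maternal arrays, with 5 of 10 markers lower (1.69% of named genes) and 0 above 0. B cell and monocyte markers each had 1 lower call, of 8 and 9, with 0 and 2 above 0. Scores were -1.20 to 0.50 against 0.07 to 0.98 for B cells, and -0.57 to 0.42 against -0.41 to 0.86 for monocytes. The B cell score averaged -0.65 on surrogate-peer, 0.14 on peer and 0.41 on maternal arrays. Between surrogate-peer and peer arrays all 8 B cell markers were lower at an unadjusted limma p under 0.05 (1.26% of named genes), with 0 past the adjusted threshold. The part of these features in the helicase differences was not tested, and in bulk samples fewer cells of a type and less RNA per cell cannot be told apart. RMA values have no 0, so no marker could be at 0.

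The count of called helicases turned on single arrays. The share of named genes called moved with it. Without maternal array 1 the helicase count was 11 (19.6% of named genes), and without maternal array 4 or 5 it was 0 (0.0414% and 0.114%). With any 1 other array left out it was between 1 and 3 (0.859% to 4.70%), against 6 (7.98%) with all arrays. Without maternal arrays 2 and 5 together, the pair with the lowest T cell scores, it was also 0 (0.145% of named genes). DHX29 was then at 0.31 and DHX8 at -0.32. DHX29 passed in 11 of the 13 fits that left out 1 array, DDX42 in 8, DHX8 in 7, and DDX20, DHX35 and DHX9 in 1 each. With every array centred on its own median, 2 helicases were higher and 1 lower (7.18% of named genes called), and with quantile scaling 1 and 1 (5.05%). The median of tested probe sets was 7.73 to 7.76 on non-maternal arrays and 7.65 to 7.71 on maternal arrays. Over all probe sets, dim ones included, the median went the other way, 5.995 to 6.043 against 6.048 to 6.060 on maternal arrays. The SD over all probe sets was 2.13 to 2.16 on non-maternal arrays and 2.10 to 2.12 on maternal arrays. The part of this in the helicase differences was not tested. No sign of the 6 called helicases changed when 1 array was left out, and DHX29 ranged only between 0.31 and 0.36.

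**Figure D5:**
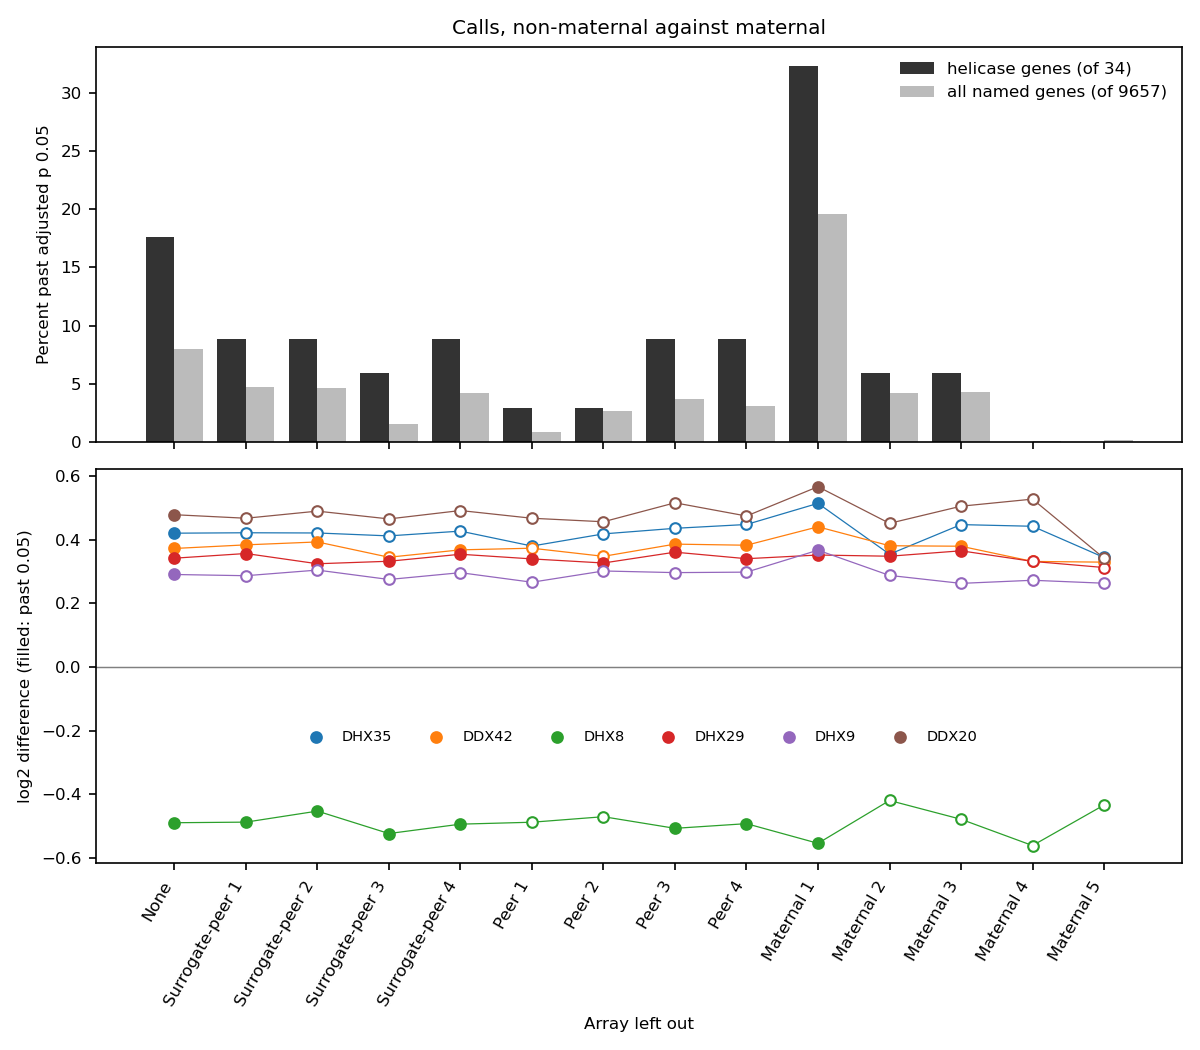
Top, percent of the 34 helicases and of named genes past an adjusted p of 0.05 for the non-maternal minus maternal contrast, with no array or 1 array left out (horizontal axis). Bottom, log2 difference of the 6 called helicases in the same fits, filled where past the threshold. The differences stay on 1 side of 0 while the calls come and go.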

How the data were processed

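Intensities of 13 arrays were summarised by the authors to log2 values per probe set with RMA, per the submitters' processing notes; the deposited log2 values were used as they stand. RMA corrects background, equalises array distributions and fits 1 value per probe set. The deposited values still differed slightly between arrays in median and SD. The software and version of RMA are not given in the sources. Control probe sets (158) were left out. Arrays have no read depth, so precision is limited by their number.

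Genes were named through the platform annotation where a probe set had 1 symbol (24956 probe sets; 361 had several and 27390 none). Probe sets with a mean above 6.04, the median of all means, were tested (26352). All 13 arrays entered 1 limma fit (version 3.58.1, R 4.3.3), and p-values were Benjamini-Hochberg adjusted over all tested probe sets. Non-maternal is the mean of the 2 group means. Scores are means of centred log2 values. The fit was tested on simulated data with independent noise and with changes larger than those of the called helicases. That test does not cover changes of their size or effects shared by an array.

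The rule for naming genes took, for non-maternal minus maternal, each helicase with a called probe set and the 3 tested genes of smallest p in each role group. For the other contrasts it took called genes, otherwise the 5 of smallest p, and from partner lists the called members. The remaining helicases are named to account for every member, with values already seen. The members and all lists were chosen with earlier results of these data known. No value column was left unmapped. Alternatives were no filter or a stricter filter, centring, quantile scaling, array weights, a robust trend, the number in the sample title as covariate, the mean of a gene's probe sets, and leaving out arrays. Probe sets of near-identical copies (DDX3X and DDX3Y, DDX19A and DDX19B, DDX39A and DDX39B) may share signal, which was not tested.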

Additional observations from a re-analysis of the deposited data

Results flagged for a closer look

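DHX9 stood apart on 1 array in each of 2 groups. Peer array 1 read 10.345, with the other peer arrays between 10.133 and 10.164, and maternal array 1 read 10.184, with the other maternal arrays between 9.767 and 9.867. Each was far from its nearest neighbour relative to the group's range (Dixon's ratio 0.854 and 0.760). These were 2 of 57 groups of values examined, and chance marks about 1 in 20.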

How the results depend on the processing

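With 4 or 5 arrays a group, calls were fragile while signs were mostly stable. The count of helicases called for non-maternal minus maternal rearing was 6, beside 7.98% of named genes. It was 3 with no filter (3.32%), 3 with arrays centred (7.18%), 2 with quantile scaling (5.05%) and 3 with array weights (5.96%). It was 5 with a stricter filter (10.92%), 5 with a robust trend (6.89%) and 5 with the mean of a gene's probe sets (8.29%). With the title number as covariate it rose to 9 (12.96%). Leaving out maternal arrays 2 and 5 gave 0 (0.145%), and leaving out 1 array gave 0 to 11 (0.0414% to 19.6%). Centring lowered the share of higher calls over named genes to 50.2%, against 78.9%, and among helicases to 66.7%, against 83.3%. For peer minus maternal rearing the count was 0 in the main fit (0.197% of named genes). It was 6 with array weights (5.78%), 6 with the title number as covariate (7.09%), and 0 to 9 with 1 array left out (0% to 14.1%). For surrogate-peer minus maternal rearing it was 0 to 7 with 1 array left out (0% to 8.05%). Maternal array 1 gave the upper end each time. The median difference became 0.27 for surrogate-peer minus maternal rearing and 0.068, reversed, for surrogate-peer minus peer rearing with the covariate, and 0.11 for peer minus maternal rearing without maternal arrays 2 and 5. Title numbers ran from 9 to 32 on surrogate-peer, 35 to 47 on peer and 31 to 55 on maternal arrays, so the covariate is partly confounded with rearing. With 1 array left out the brightest DDX39A probe set ran from -0.011 (without maternal array 5) to 0.16. Without maternal arrays 2 and 5 DDX39A turned to -0.026 and DHX30 to -0.019. The cause was not tested. No paired analysis was possible because the labels give no replicate numbers shared between groups.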
